A study of Mus musculus with 6 samples.

Results

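Solute carriers outside the mitochondrial Slc25a family were examined in hind leg muscle of mice with and without moderate-intensity treadmill exercise. The place of a carrier in the cell was not otherwise used to select it. The genes were selected on their measured level: every symbol that begins with Slc, a family number, the letter a and a number and had a mean of at least 1 FPKM (mapped fragments scaled by transcript length and by library depth) over the 6 libraries was taken, leaving out the mitochondrial Slc25a family and Slc2a1, Slc2a4, Slc16a1, Slc16a3 and Slc4a1. Of 293 such symbols in the table of 16759 genes, 46 were Slc25a genes and 5 were left out by name, and 115 of the remaining 242 reached the limit. Of these, 111 were carriers of 42 families and 4 carry the name pattern but encode no carrier (Slc4a1ap, Slc7a6os, Slc9a3r1 and Slc9a3r2). Symbols with another subfamily letter, such as Slc8b, Slc35b and Slco genes, were not taken, so a family named here means its members of this pattern. The selection used the mean over all 6 libraries and not the difference between the groups. The lowest levels inside the limit were those of Slc7a7 (1.01 FPKM), Slc24a3 (1.11 FPKM) and Slc29a3 (1.21 FPKM), and the highest levels outside it were those of Slc22a17 (0.972 FPKM), Slc26a2 (0.968 FPKM) and Slc36a4 (0.900 FPKM).

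All mice were male C57BL/6J animals, 8 weeks old at the start. The 3 EX mice were trained for 6 weeks on a treadmill, in 5 sessions of 60 min each week, covered 22 km each, and were killed 24 h after their last session, so the values describe muscle a day after training and not during it. The 3 Con mice had no treadmill training. Each library was made from 1 mouse, and the labels name the hind leg muscles together and no single muscle, so every value mixes fibre types and the other cells of the tissue.

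A solute carrier is a membrane protein that moves a small molecule without splitting ATP itself. Some let a molecule run down its own gradient, some couple its uptake to sodium or protons, and some are exchangers that let one molecule in for another out. In muscle fibres, carriers bring in glucose, fatty acids, amino acids and creatine, move calcium, chloride, magnesium, iron and zinc, and pass sugars and metals between the cytosol and the endoplasmic reticulum, Golgi apparatus and lysosomes. Several amino acid exchangers work only when joined to a heavy chain, Slc3a2, so their abundance at the membrane depends on more than their own transcript.

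Of the 115 genes, 25 differed between EX and Con at an adjusted p under 0.05 (edgeR quasi-likelihood test on the counts, Benjamini-Hochberg adjustment over the 10883 genes tested), which is 21.7% of them beside 17.9% of all genes tested. By direction, 7 genes rose (6.09%, beside 9.11% of all genes) and 18 fell (15.7%, beside 8.8% of all genes). On CPM (counts scaled by the normalised library size), the groups did not overlap for 48 of the 115 genes (41.7%, beside 33.7% of all genes). EX was the higher group for 19 of these (16.5%, beside 16.7%) and the lower group for 29 (25.2%, beside 16.9%). The share of calls followed the level: it was 14% of the 50 genes under 5 FPKM (13.0% of all genes at that level), 26.7% of the 45 genes between 5 and 20 FPKM (15.8%) and 30% of the 20 genes at 20 FPKM or more (26.6%). The median log2 fold change was -0.02 over the 115 genes and -0.00 over all genes tested, and 63 of the 115 (54.8%) lay below 0, beside 50.3% of all genes. The typical change was small, with a median size of 0.11 on the log2 scale beside 0.10 for all genes.

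The number of rises depended on the analysis. With library totals taken without the 20 most abundant genes, 6 carriers rose and 24 fell, beside 768 and 1269 of all genes (991 and 958 with the main scaling). With DESeq2, 3 rose and 14 fell, beside 643 and 585 of all genes. Without EX replicate 3, 3 rose and 15 fell, beside 667 and 677. With limma on log2(FPKM + 0.1), a change of both test and unit, 2 rose and 22 fell, beside 411 and 1037 of all genes, whose median lay at -0.06. Of the 7 rises, those of Slc38a2 and Slc37a4 passed the threshold in all 14 alternative analyses, and the other 5 in 5 to 8 of them. Of the 18 falls, 13 passed in all 14, and those of Slc38a10, Slc8a3, Slc1a1, Slc7a6 and Slc12a2 in 10 to 13.

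The libraries held 13845362 to 16240431 counts, and the 20 most abundant genes took 30.1% to 32.5% of them. The lowest count of any of the 115 genes in a library was 15 (Slc7a7), and the genes with few counts are the least precisely measured. Markers of muscle fibres summed to between 120664 and 127190 CPM in Con and between 128695 and 135661 CPM in EX, and of the 6, Acta1 rose (log2 fold change 0.22) and Mb fell (-0.14). Fast fibre markers rose in 5 of 7 cases (summed 133491 to 134429 CPM against 144163 to 149318 CPM), and 1 of 4 red blood cell markers rose (199 to 216 against 217 to 236 CPM). Markers of other fibres and cells differed between the groups: all 6 slow fibre markers rose (summed 58.2 to 62.7 CPM in Con and 298 to 315 CPM in EX), 5 of 6 macrophage markers tested rose (41.3 to 45.5 against 72.3 to 77.6 CPM), 4 of 4 adipocyte markers rose (14.1 to 15.3 against 34.8 to 39.3 CPM) and 5 of 7 fibroblast and tendon markers rose (752 to 810 against 991 to 1010 CPM). In the other direction, 5 of 8 endothelial markers fell and 1 rose (698 to 718 against 613 to 631 CPM), and 4 of 5 Schwann cell markers fell (111 to 123 against 85.0 to 88.1 CPM). No marker was at 0 in all libraries. The part of these cells in the changes of the carriers was not tested, and in whole tissue fewer cells of a type and less RNA per cell cannot be told apart.

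The promoters of 4 genes with large or well measured changes are shown here because they are the stretches from which these transcripts start: Slc15a2 (Entrez gene 57738), which fell most, Slc38a2 (Entrez gene 67760), which rose most, Slc41a3 (Entrez gene 71699), the carrier of highest level among those that fell, and Slc50a1 (Entrez gene 19729). Among the 18 windows at hand for genes past the threshold, that of Slc50a1 is the only one to hold the core letters of the amino acid response element. Each window runs from 250 bases before to 50 bases after a gene start, as RefSeq gives it on GRCm38.p6, written 5′ to 3′ on the gene's own strand. The windows lie at chr16:36784913-36785212 on the minus strand for Slc15a2, chr15:96699679-96699978 on the minus strand for Slc38a2, chr6:90618996-90619295 on the plus strand for Slc41a3 and chr3:89270521-89270820 on the minus strand for Slc50a1. Capitals mark exact matches, on either strand, of 3 letter strings: GGGCGG (GC box, the binding letters of Sp factors), CACGTG (E-box) and TGATGCAA (core of the amino acid response element).
Slc15a2: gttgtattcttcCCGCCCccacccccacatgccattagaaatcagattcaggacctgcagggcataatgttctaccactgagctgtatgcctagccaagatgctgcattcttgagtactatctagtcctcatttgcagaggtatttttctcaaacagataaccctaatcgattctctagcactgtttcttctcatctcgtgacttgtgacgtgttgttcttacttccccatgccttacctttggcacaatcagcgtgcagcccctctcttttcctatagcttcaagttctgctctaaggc
Slc38a2: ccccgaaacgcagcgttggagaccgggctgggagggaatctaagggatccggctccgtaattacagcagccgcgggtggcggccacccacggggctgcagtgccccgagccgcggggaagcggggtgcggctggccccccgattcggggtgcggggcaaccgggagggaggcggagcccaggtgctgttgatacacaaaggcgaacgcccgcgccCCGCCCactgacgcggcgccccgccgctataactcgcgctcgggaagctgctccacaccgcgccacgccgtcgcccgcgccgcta
Slc41a3: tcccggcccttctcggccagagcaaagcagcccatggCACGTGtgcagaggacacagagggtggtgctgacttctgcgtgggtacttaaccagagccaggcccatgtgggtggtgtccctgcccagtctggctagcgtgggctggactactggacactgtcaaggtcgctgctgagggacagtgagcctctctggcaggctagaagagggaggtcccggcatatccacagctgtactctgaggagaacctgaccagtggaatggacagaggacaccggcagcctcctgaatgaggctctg
Slc50a1: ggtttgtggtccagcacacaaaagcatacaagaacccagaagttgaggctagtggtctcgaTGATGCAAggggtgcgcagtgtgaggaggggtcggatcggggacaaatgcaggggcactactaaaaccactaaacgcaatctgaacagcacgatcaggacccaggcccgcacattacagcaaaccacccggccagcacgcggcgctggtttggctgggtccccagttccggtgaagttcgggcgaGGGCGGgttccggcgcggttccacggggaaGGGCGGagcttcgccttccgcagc

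A promoter window was at hand for 90 of the 115 genes, 18 of them among the 25 past the threshold. GGGCGG or its complement stood in 65 of the 90 windows (72.2%), beside 65.4% of the 8762 windows of genes tested and 35.9% of all 27025 windows, and in 12 of the 18. CACGTG stood in 14 of the 90 (15.6%, beside 10.7% and 7.24%), and in those of Slc41a3 and Slc43a1 among the 18. TGATGCAA or its complement stood in 2 of the 90 (2.22%, beside 0.571% and 0.929%), those of Slc50a1 and Slc7a7. No string holds another of the 3. A match of letters is a description and shows no bound factor.

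**Figure D1:**
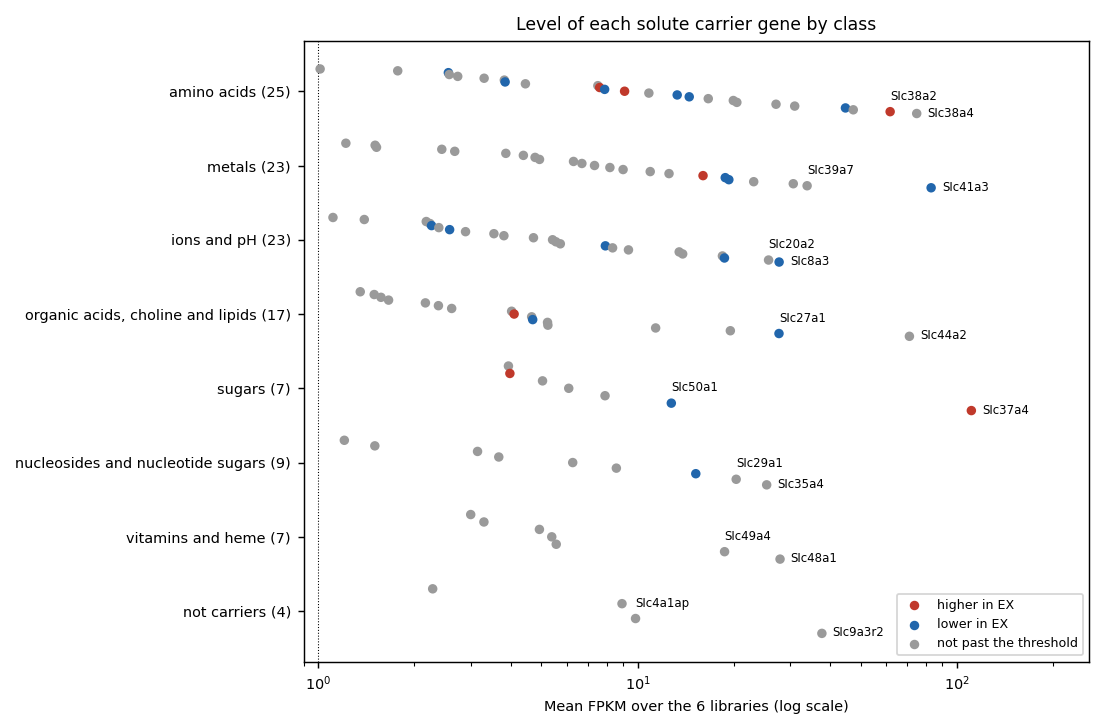
Mean FPKM over the 6 libraries (log axis) of each of the 115 genes, 1 point a gene, in rows by the class of molecule carried, with the 2 highest genes of each class named and the 1 FPKM limit dotted. The levels span 1.01 to 111 FPKM, and genes past the threshold (coloured) lie from 2.26 to 111 FPKM.

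The levels themselves, per length, put a glucose-6-phosphate carrier of the endoplasmic reticulum, Slc37a4, first at 111 FPKM, averaged over the 6 libraries. It was followed by Slc41a3, a magnesium carrier, at 83.0 FPKM, and by Slc38a4, a sodium-coupled carrier of neutral amino acids, at 74.8 FPKM. Next stood Slc44a2, a choline transporter-like protein, at 71.0 FPKM and Slc38a2, another sodium-coupled carrier of alanine and glutamine, at 61.8 FPKM. In all, 39 of the 115 genes had a mean of at least 10 FPKM and 13 had one under 2 FPKM. By class, amino acid carriers held 29.8% of the summed FPKM of the 115 genes with 25 genes, metal carriers 21.2% with 23, carriers of other ions and of acid and base 12.8% with 23, carriers of organic acids, choline and lipids 11.6% with 17, and sugar carriers 10.2% with 7.

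Among the 25 amino acid and peptide carriers, 3 rose (12%, beside 9.11% of all genes) and 6 fell (24%, beside 8.8%), and the median log2 fold change was -0.01. The largest change of all 115 genes was here. Slc15a2, the high-affinity proton-coupled carrier of small peptides, was measured at 15.9, 14.9 and 15.9 CPM in Con and 7.70, 5.79 and 5.91 CPM in EX. Every EX library lay below every Con library, and the mean fell by 58.4% (log2 fold change -1.27 ± 0.11 (SE), adjusted p = 8.1e-10). The 2 relatives of Slc15a2 above the limit did not pass the threshold: the log2 fold change was 0.11 (edgeR, adjusted p = 0.25) for Slc15a4, a lysosomal carrier of histidine and peptides, and 0.06 (edgeR, adjusted p = 0.71) for Slc15a5.

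The sodium-coupled Slc38 family split. Slc38a2, which fills cells with alanine and glutamine, gave 230.2, 241 and 243 CPM in Con and 312, 287 and 302 CPM in EX. The groups were well apart (log2 fold change 0.34 ± 0.04 (SE), adjusted p = 3.3e-07). Slc38a3, a carrier of glutamine and histidine that also exchanges protons, gave 125, 108 and 115 CPM in Con and 90.6, 96.1 and 94.8 CPM in EX, again without overlap but in the other direction (log2 fold change -0.31 ± 0.05 (SE), adjusted p = 3.2e-05). Slc38a10, whose substrates are less well defined, also fell (log2 fold change -0.18 ± 0.05 (SE), adjusted p = 0.017). The member of highest level, Slc38a4, was measured at 269.6, 271 and 256 CPM in Con and 280.4, 273 and 276 CPM in EX. These groups did not overlap either, but the difference did not pass the threshold (log2 fold change 0.06 ± 0.04 (SE), adjusted p = 0.31). The remaining 3 members, Slc38a6, Slc38a7 and the lysosomal arginine sensor Slc38a9, had log2 fold changes of -0.13, 0.02 and -0.09, none past the threshold.

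Set against each other within each library, where the scaling between libraries has no part, the Slc38 pair moved apart. The FPKM of Slc38a2 was 0.993, 1.21 and 1.14 times that of Slc38a3 in the Con libraries and 1.83, 1.62 and 1.73 times in the EX libraries. Against Slc38a4 it was 0.710, 0.739 and 0.792 times in Con and 0.924, 0.876 and 0.912 times in EX. Slc38a2 and Slc38a3 were thus near equal in Con muscle, and Slc38a2 was the more abundant in every EX library. These pairs were chosen after their values were seen, so the ratios are a description with no test.

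The exchangers that join the heavy chain Slc3a2 also included changes of both directions. Slc7a6, which trades arginine for neutral amino acids and glutamine, gave 30.3, 28.4 and 29.2 CPM in Con and 25.2, 23.7 and 26.4 CPM in EX and fell (log2 fold change -0.22 ± 0.06 (SE), adjusted p = 0.015). Slc7a8, an exchanger of neutral amino acids, averaged 27.3 ± 3.98 CPM in Con against 33.1 ± 3.01 CPM in EX (mean ± SD, n = 3 each) and rose (log2 fold change 0.28 ± 0.08 (SE), adjusted p = 0.012), but passed in 8 of the 14 alternatives and its groups overlapped, since the highest Con library lay at 31.9 CPM and the lowest EX library at 31.0 CPM. Slc3a2 itself stood at 44.8 ± 2.83 CPM in Con against 44.9 ± 1.71 CPM in EX (mean ± SD, n = 3 each), with a log2 fold change of 0.00 (edgeR, adjusted p = 0.99). The FPKM of Slc7a8 was 1.13, 0.929 and 0.875 times that of Slc7a6 in Con and 1.34, 1.34 and 1.42 times in EX, also a pair chosen after its values were seen. The other relatives above the limit, the cationic amino acid carrier Slc7a2 (-0.08) and Slc7a7 (-0.05), did not pass the threshold, though Slc7a2 passed with limma on TPM.

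The 2 members of the Slc1 family above the limit had changes of opposite sign. Slc1a5, which exchanges glutamine and other small neutral amino acids, was at 17.6, 16.3 and 17.2 CPM in Con and 20.9, 18.5 and 21.1 CPM in EX and rose (log2 fold change 0.25 ± 0.08 (SE), adjusted p = 0.024), a call made in 7 of the 14 alternatives and not with DESeq2. Slc1a1, a sodium-driven carrier of glutamate and cysteine, was at 9.90, 10.1 and 9.66 CPM in Con and 7.88, 7.77 and 7.18 CPM in EX and fell (log2 fold change -0.37 ± 0.10 (SE), adjusted p = 0.012). In Slc1a1, 32% of the exon bases are shared with 4430402I18Rik on the other strand, a gene at 0.958 FPKM, and whether the counts used strand was not stated. Slc43a1, which lets branched-chain and other large neutral amino acids pass without sodium, was at 29.8, 34.0 and 32.0 CPM in Con and 22.1, 25.9 and 25.6 CPM in EX and fell without overlap (log2 fold change -0.38 ± 0.07 (SE), adjusted p = 2.0e-04). Its relatives Slc43a2 (-0.01) and Slc43a3 (-0.12) did not pass the threshold, though Slc43a3 passed with limma on TPM. The carriers of creatine, taurine and glycine in the Slc6 family did not pass with edgeR, DESeq2 or at an unadjusted p under 0.05: Slc6a8 had a log2 fold change of 0.08 at 47.4 FPKM, Slc6a6 one of 0.05 at 31.0 FPKM and Slc6a9 one of -0.11 at 3.83 FPKM.

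**Figure D2:**
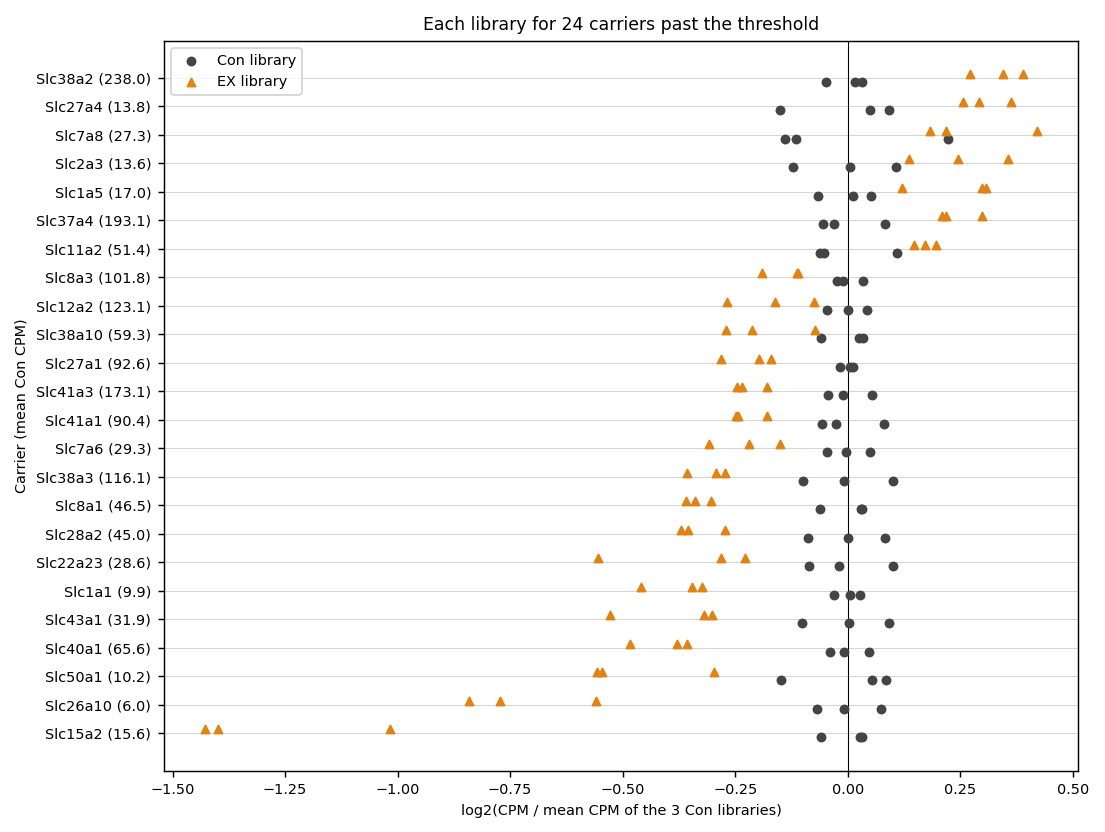
CPM of each library divided by the mean of the 3 Con libraries (log2 axis) for 24 of the 25 genes past the threshold, with Con and EX libraries as separate points. The points of the groups stand apart in 23 genes and overlap in Slc7a8, and Slc15a2 lies furthest from 0.

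Carriers of sodium, chloride, calcium, phosphate, acid and base gave falls and no rise. Of the 23 genes, 5 fell (21.7%, beside 8.8% of all genes) and 0 rose (beside 9.11%) with edgeR. DESeq2 called 4 of the 23, with 0 rises (beside 643 rises and 585 falls among all genes). At an unadjusted p under 0.05, 9 were lower (39.1%, beside 15.1% of all genes) and 0 higher (beside 15.5%). In all, 17 of the 23 had a log2 fold change below 0, beside 50.3% of all genes. The median was -0.13, the lowest of all classes and between -0.20 and -0.10 in all 14 alternatives. Both Slc8 sodium-calcium exchangers among the 115 genes fell. These proteins push calcium out of the cell in exchange for sodium. Slc8a3, the form of highest level here at 27.7 FPKM, was measured at 101, 104 and 100.1 CPM in Con and 89.1, 94.1 and 94.3 CPM in EX, with groups close to each other but apart (log2 fold change -0.14 ± 0.04 (SE), adjusted p = 0.027). This fall passed the threshold in 10 of the 14 alternatives and not with DESeq2. Slc8a1, best known from heart muscle and at 2.58 FPKM here, was measured at 47.4, 44.5 and 47.5 CPM in Con and 37.7, 36.2 and 36.7 CPM in EX and fell (log2 fold change -0.33 ± 0.05 (SE), adjusted p = 3.9e-05). Slc24a3, an exchanger of calcium for sodium and potassium just above the limit, had a log2 fold change of -0.14 and overlapping groups (edgeR, adjusted p = 0.63).

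All 5 cation-chloride cotransporters of the Slc12 family lay below 0 in the main test (beside 50.3% of all genes) and in each of the 14 alternatives. In the 3 limma analyses, the median of all genes also lay below 0, at -0.06, -0.05 and -0.09. Of the 5, 2 passed the threshold, both lower (beside 8.8% of all genes). One of these, Slc12a2, the sodium-potassium-chloride cotransporter that brings salt in, was at 119, 123 and 127 CPM in Con and 117, 102 and 110.0 CPM in EX (log2 fold change -0.17 ± 0.05 (SE), adjusted p = 0.012). Each EX library lay below each Con library, though the highest EX library came close to the lowest Con library. The potassium-chloride cotransporter Slc12a4 (log2 fold change -0.20, adjusted p = 0.077, edgeR) and the less studied Slc12a9 (-0.17, adjusted p = 0.056) were among those that did not pass. Slc12a4 did pass without the 20 most abundant genes in the totals and in all 3 limma analyses, and Slc12a9 without those 20 genes and without EX replicate 2. Among the kinases that switch these cotransporters, Wnk1 (log2 fold change 0.00) and Oxsr1 (0.01) did not pass the threshold.

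Slc26a10, a little studied relative of the anion exchangers, was measured at 5.95, 6.30 and 5.71 CPM in Con and 3.34, 3.50 and 4.06 CPM in EX. It fell by 39.2% without overlap of the groups (log2 fold change -0.72 ± 0.14 (SE), adjusted p = 5.5e-04). Its exons share 22.8% of their bases with B4galnt1, a gene on the other strand at a mean of 0.367 FPKM. None of the 6 sodium-proton exchangers of the Slc9 family passed the threshold in the main edgeR test (beside 17.9% of all genes) or with DESeq2 (beside 11.3%). At an unadjusted p under 0.05, 0 of the 6 were lower (beside 15.1%) and 0 higher (beside 15.5%), though Slc9a8 passed the threshold without Con replicate 3. Nor did the 4 bicarbonate and anion carriers of the Slc4 family pass in either test, with log2 fold changes from -0.15 (Slc4a4) to 0.18 (Slc4a3). Of these 4, 1 was lower at an unadjusted p under 0.05 (beside 15.1% of all genes). The phosphate carriers Slc20a1 (-0.13) and Slc20a2 (-0.07) did not pass either, though Slc20a1 passed in all 3 limma analyses. Slc20a2, of the highest level after Slc8a3 in this class, was at 90.7, 84.8 and 92.4 CPM in Con and 91.1, 83.1 and 81.7 CPM in EX, with overlapping groups.

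Among the 23 metal carriers, 1 rose (4.35%, beside 9.11% of all genes), 3 fell (13%, beside 8.8%) and the median log2 fold change was -0.02. Both magnesium carriers of the Slc41 family fell. Slc41a3 gave 168, 179.6 and 172 CPM in Con and 146, 153 and 147 CPM in EX (log2 fold change -0.22 ± 0.04 (SE), adjusted p = 2.4e-04). Slc41a1, which exchanges magnesium for sodium at the plasma membrane, gave 95.6, 88.8 and 86.9 CPM in Con and 79.8, 76.4 and 76.1 CPM in EX (log2 fold change -0.22 ± 0.05 (SE), adjusted p = 0.0011). Neither gene showed an overlap of the groups, and the family lay below 0 in each of the 14 alternatives.

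The iron carriers went both ways. Slc40a1 (ferroportin), the known route by which cells release iron and a gene that macrophages also use, was at 65.2, 67.8 and 63.8 CPM in Con and 51.2, 46.9 and 50.4 CPM in EX and fell without overlap (log2 fold change -0.41 ± 0.05 (SE), adjusted p = 8.6e-07). Of the macrophage markers, 5 of the 6 tested rose, and their part in the level of Slc40a1 was not tested. Slc11a2, which takes ferrous iron in with protons, was at 55.4, 49.2 and 49.5 CPM in Con and 56.9, 57.9 and 58.9 CPM in EX and rose (log2 fold change 0.17 ± 0.05 (SE), adjusted p = 0.019), with little room between the groups. This rise passed the threshold in 6 of the 14 alternatives, and the fall of Slc40a1 in all of them. No zinc carrier passed the threshold in the main edgeR test (beside 17.9% of all genes) or with DESeq2 (beside 11.3%). These were 7 Slc30 genes, which move zinc out of the cytosol (median log2 fold change -0.09), and 10 Slc39 genes, which move it in (median 0.08). At an unadjusted p under 0.05, 2 Slc30 genes were lower (15.1% of all genes were) and 1 Slc39 gene was higher (15.5% of all genes were). In other analyses, Slc30a4 passed without the 20 most abundant genes in the totals, Slc30a2, Slc30a4 and Slc30a9 with limma on TPM, and Slc39a1 without EX replicate 1. The highest of them, Slc39a7, which releases zinc from the endoplasmic reticulum, was at 70.5, 69.5 and 69.2 CPM in Con and 63.8, 68.7 and 71.8 CPM in EX, with overlapping groups. The copper carriers Slc31a1 (-0.02) and Slc31a2 (0.27, adjusted p = 0.055, edgeR) did not pass, though Slc31a2 passed without Con replicate 2 and without EX replicate 2.

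Of the 7 sugar carriers above the limit, 2 rose (28.6%, beside 9.11% of all genes) and 1 fell (14.3%, beside 8.8%), and the median log2 fold change was 0.11. Slc37a4, which carries glucose-6-phosphate into the endoplasmic reticulum, gave 204, 189 and 186 CPM in Con and 223, 237 and 225 CPM in EX. Every EX library lay above every Con library (log2 fold change 0.24 ± 0.04 (SE), adjusted p = 9.5e-05), and the threshold was passed in all 14 alternatives. Slc2a3, a glucose carrier of high affinity best known from neurons, gave 13.7, 14.7 and 12.5 CPM in Con and 17.5, 16.2 and 15.0 CPM in EX, and its rise (log2 fold change 0.25 ± 0.09 (SE), adjusted p = 0.045) passed in 5 of the 14. Slc50a1, a sugar carrier found mainly in the Golgi apparatus, gave 10.8, 9.22 and 10.6 CPM in Con and 7.0, 6.94 and 8.32 CPM in EX and fell (log2 fold change -0.46 ± 0.11 (SE), adjusted p = 0.0041). Of the carriers left out of the 115 by name, the muscle glucose carrier Slc2a4 had a log2 fold change of -0.01, and Slc16a3, the lactate exporter of fast fibres, rose (log2 fold change 0.12, edgeR adjusted p = 0.033).

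**Figure D3:**
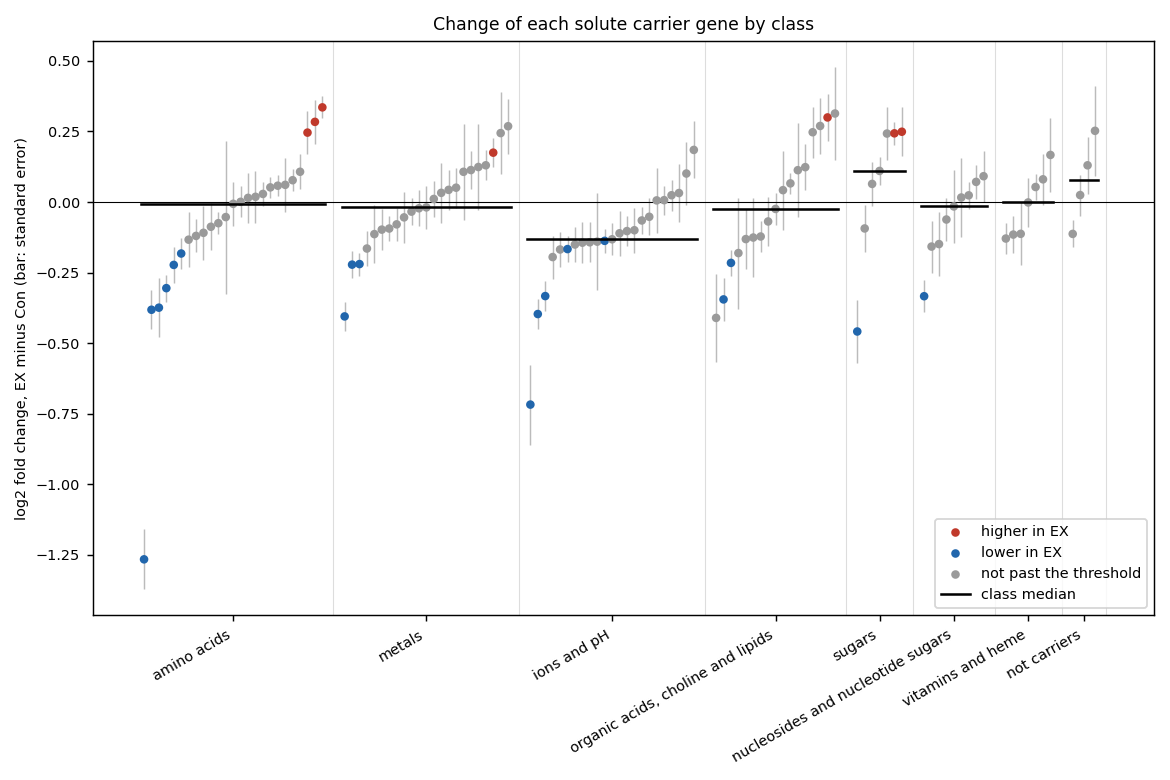
Log2 fold change, EX against Con, of each of the 115 genes (edgeR), 1 point a gene, by class of molecule carried, with its SE as a thin line, the class median as a black bar and genes past the threshold coloured. The class of ions and pH has its median at -0.13 and no gene that rose, and the medians of the other classes lie between -0.02 and 0.11.

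Among the 17 carriers of organic acids, choline and lipids, 1 rose (5.88%, beside 9.11% of all genes), 2 fell (11.8%, beside 8.8%) and the median was -0.02. The fatty acid transport proteins, which both take up fatty acids and join them to coenzyme A, included changes of both directions. Slc27a1, the main form in muscle, was at 93.0, 93.3 and 91.6 CPM in Con and 76.1, 80.8 and 82.3 CPM in EX and fell (log2 fold change -0.22 ± 0.04 (SE), adjusted p = 9.1e-04). Slc27a4 was at 12.4, 14.2 and 14.7 CPM in Con and 16.5, 16.9 and 17.7 CPM in EX and rose (log2 fold change 0.30 ± 0.08 (SE), adjusted p = 0.011), a call made in 8 of the 14 alternatives and not with DESeq2. Their FPKM ratio, Slc27a4 over Slc27a1, was 0.111, 0.127 and 0.133 in Con and 0.180, 0.174 and 0.178 in EX, so Slc27a1 was the more abundant in every library. This pair too was chosen after its values were seen. The third form, Slc27a3, had a log2 fold change of 0.31 (edgeR, adjusted p = 0.20) at 1.5 FPKM.

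Slc22a23, a member of the organic ion carriers without a settled substrate, was at 30.7, 28.2 and 27.0 CPM in Con and 19.5, 23.6 and 24.4 CPM in EX and fell (log2 fold change -0.35 ± 0.08 (SE), adjusted p = 0.0016). The carnitine carriers Slc22a5 (-0.07) and Slc22a4 (0.11) of the same family did not pass the threshold. Slc44a2, the highest gene of the class, was at 228, 227 and 215 CPM in Con and 232, 237 and 232 CPM in EX, without overlap but not past the threshold (log2 fold change 0.07 ± 0.04 (SE), adjusted p = 0.25). The exporter of organic cations Slc47a1 (-0.02) did not pass.

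Among the 9 carriers of nucleosides and nucleotide sugars, Slc28a2, which takes up purine nucleosides with sodium, was the one past the threshold (11.1% of them fell, beside 8.8% of all genes). It was measured at 42.3, 45.0 and 47.7 CPM in Con and 35.2, 37.2 and 34.8 CPM in EX and fell without overlap (log2 fold change -0.33 ± 0.06 (SE), adjusted p = 9.1e-05). Its deposited counts are not whole numbers in any library. The sodium-independent nucleoside carrier Slc29a1 was at 33.0, 38.6 and 36.5 CPM in Con and 36.1, 38.6 and 39.1 CPM in EX, with overlapping groups. The 5 Slc35a genes, which feed nucleotide sugars into the Golgi apparatus and endoplasmic reticulum, had log2 fold changes from -0.16 to 0.09. Of the 5, 0 were called by edgeR (beside 17.9% of all genes) and 0 by DESeq2 (beside 11.3%). At an unadjusted p under 0.05, 0 were lower (beside 15.1%) and 0 higher (beside 15.5%). The highest of the Slc35a genes, Slc35a4, was at 64.3, 63.1 and 60.5 CPM in Con and 64.6, 62.9 and 63.4 CPM in EX.

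No gene of the 7 vitamin and heme carriers passed the threshold in the main edgeR test (beside 17.9% of all genes) or with DESeq2 (beside 11.3%). At an unadjusted p under 0.05, 1 of the 7 was lower (beside 15.1% of all genes). Their median log2 fold change was -0.00. Slc48a1, which lets heme out of lysosomes, was at 71.1, 63.0 and 59.5 CPM in Con and 57.4, 60.4 and 58.9 CPM in EX (log2 fold change -0.13 ± 0.06 (SE), adjusted p = 0.11), and passed without the 20 most abundant genes in the totals, with limma on TPM and without Con replicate 3. Slc49a4, a lysosomal protein, was at 93.8, 94.8 and 93.1 CPM in Con and 93.5, 103 and 95.3 CPM in EX (log2 fold change 0.05 ± 0.05 (SE), adjusted p = 0.47). The groups overlapped in both. Beside the same shares of all genes, the 4 genes that encode no carrier did not pass in the main edgeR test or with DESeq2 (1 lower at an unadjusted p under 0.05). Of these, the membrane scaffold Slc9a3r2 was at 63.4, 60.5 and 63.7 CPM in Con and 57.2, 59.5 and 56.7 CPM in EX (log2 fold change -0.11 ± 0.05 (SE), adjusted p = 0.10), and passed without the 20 most abundant genes in the totals and in all 3 limma analyses. Slc4a1ap, a nuclear protein, was at 22.3, 24.1 and 27.9 CPM in Con and 25.7, 25.0 and 25.1 CPM in EX (log2 fold change 0.02 ± 0.07 (SE), adjusted p = 0.86).

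Sorted by the membrane where each protein is mainly found, in a grouping made after the values were seen and not tested, 16 of 56 carriers of the plasma membrane had passed the threshold (28.6%, beside 17.9% of all genes, with 4 higher and 12 lower and a median log2 fold change of -0.07). Of 30 carriers of organelle membranes, 2 had passed (6.67%, Slc37a4 higher and Slc50a1 lower, median 0.01). The other 29 genes, placed in neither group, held the other 7 of the 25 genes past the threshold.

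Among 14 tested genes of a list of 18 partners and regulators of carriers, 3 rose (21.4%, beside 9.11% of all genes) and 1 fell (7.14%, beside 8.8%), and the median log2 fold change was 0.00. Arrdc4, an arrestin relative that helps to take glucose carriers off the membrane, rose by 0.48 on the log2 scale, Nedd4l, a ubiquitin ligase for carriers and channels, by 0.18, and Nptn, a chaperone of lactate carriers, by 0.13. Tbc1d1, which holds back glucose carrier vesicles, fell by 0.23. Bsg, the main chaperone of lactate carriers, had a log2 fold change of 0.10 (edgeR, adjusted p = 0.087), and Txnip, the closest relative of Arrdc4 in this list, one of 0.01.

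The 127 symbols under the limit all had some counts. In the fit without the limit, 4 of them (3.15%) passed the threshold, beside 3.15% of the 5833 genes under the limit and 12% of all genes in that fit. The sodium-bicarbonate carrier Slc4a8 went from 165, 183 and 198 counts in Con to 116, 110 and 114 in EX (log2 fold change -0.73), and Slc16a12, a relative of the lactate carriers that carries creatine, from 37, 41 and 39 to 33, 11 and 22 (-0.88). The glutamate carrier Slc1a2 went from 3, 5 and 4 counts to 22, 13 and 19. The GABA carrier Slc6a11 went from 3, 2 and 0 to 7, 9 and 9. The Con counts of both were thus few, near the 3 counts up to which an observed 0 leaves the true level open.

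**Figure D4:**
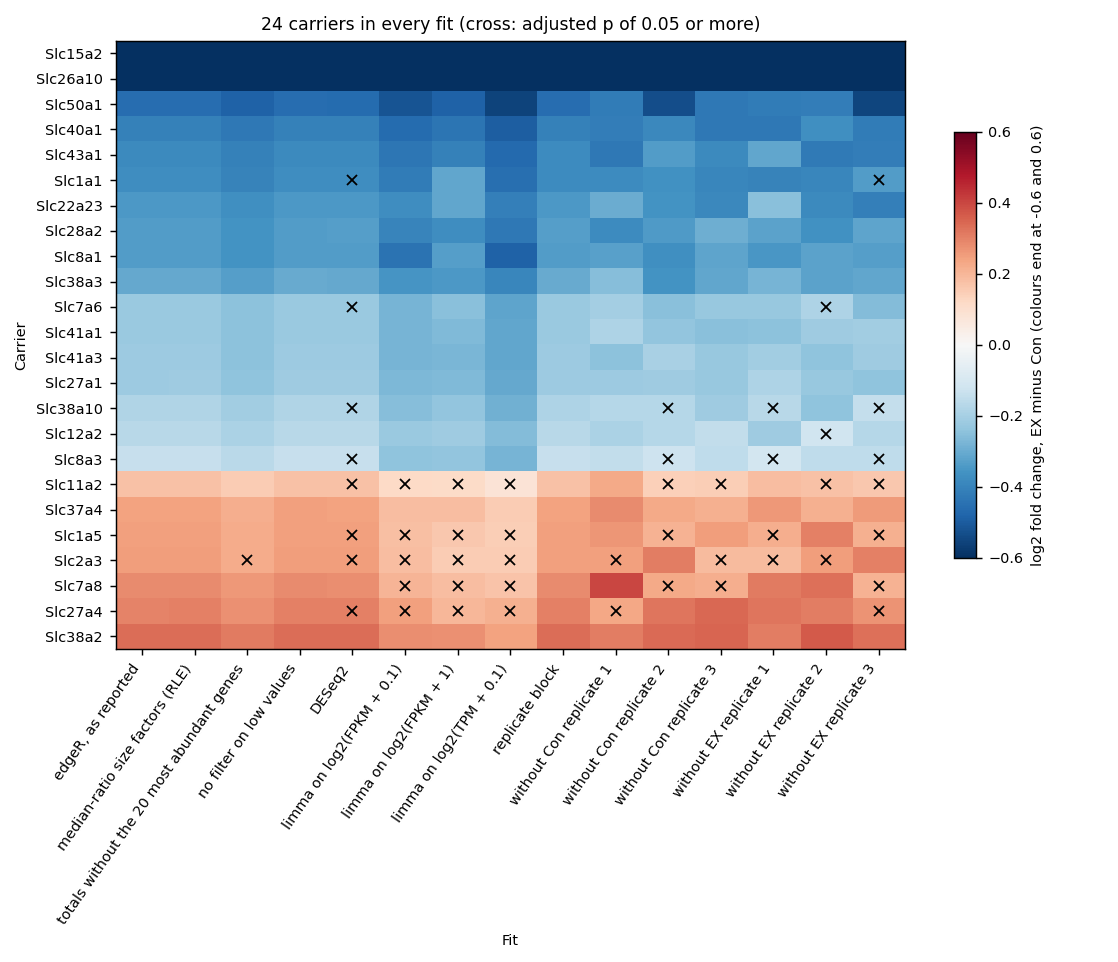
Log2 fold change of 24 of the 25 genes past the threshold under the main test and 14 alternatives (rows genes, columns analyses, colour the log2 fold change, ending at -0.6 and 0.6), with a cross where the threshold was not passed. The crosses gather in the rises of Slc2a3, Slc11a2, Slc1a5, Slc7a8 and Slc27a4.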

How the data were processed

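Total RNA of hind leg muscle from 3 Con and 3 EX mice was sequenced on the DNBseq platform (paired reads of 150 bp), with 1 library per mouse. The authors filtered the reads and, per the paper, matched them to GRCm39 with HISAT. The submitters' processing notes instead list cutadapt, featureCounts, MultiQC and GRCm38.p6, so the build behind the counts is not settled and no gene coordinates were taken from the table. For each gene and library, the deposited table holds an estimated count, which the authors did not normalise, and the FPKM and TPM values that the authors derived from it. Between 4.18% and 4.44% of a library's counts are not whole. Whether strand was used is not given in the sources used here. Columns of group means were not used, and 0 columns of single libraries were left without a sample.

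The counts were rounded and tested with edgeR 4.0.16 (glmQLFit and glmQLFTest, TMM normalization) in R 4.3.3 over the 10883 genes whose mean FPKM reached 1, with Benjamini-Hochberg adjustment over all of them and a threshold of 0.05 without a limit on the fold change. CPM values were counts over the TMM-normalised library size. Levels of different genes were compared on FPKM only. Alternatives were DESeq2 1.42.0, limma 3.58.1 on FPKM and TPM, other scalings, no filter on low values, a replicate block and leaving out each library. The edgeR step was tested on simulated data. No enrichment test was run, since the genes and lists were chosen with earlier results of these data known. Values per library were given for the genes past the threshold whose groups do not overlap (at most 14 with the largest increase and 14 with the largest decrease) and for the 2 of highest FPKM in each class. The other genes past the threshold were named with their fold change, and relatives, partners and a few further genes were named after their values were seen. A few genes are counted but not reported by name here. Promoter windows came from a RefSeq table on GRCm38.p6 (the first window listed per gene), and exon overlaps from GENCODE M21. Counts of 0 to 3 per library, or 0.188 to 0.215 CPM, are at the limit that a count of 0 allows, which covers counting error only.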

Additional observations from a re-analysis of the deposited data

How the results depend on the processing

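The count of 25 carriers past the threshold lay between 17 and 31 in all 14 alternatives, but the count of rises depended on the analysis. From 7, it went to 3 with DESeq2, to 2 with limma on log2(FPKM + 0.1), to 2 with limma on log2(FPKM + 1) and to 2 with limma on log2(TPM + 0.1), and the 18 falls went to 29 with the TPM values. In these 3 limma analyses, 411, 411 and 340 of all genes were higher and 1037, 1032 and 1684 lower, with medians of -0.06, -0.05 and -0.09. Over all genes, DESeq2 called 1228 in place of 1949. Leaving out 1 library at a time gave 18 to 24 carriers past the threshold, 3 to 7 rises, 15 to 20 falls and 1344 to 1857 of all genes. The lowest counts of carriers and of rises, 18 and 3, came without EX replicate 3, and 4 rises were left without Con replicate 3. Among the genes named with values in every library, no gene past the threshold changed direction in any alternative. Signs changed only in genes near 0: Slc35a4 (-0.00084 without the 20 most abundant genes, -0.033 and -0.031 with FPKM, -0.068 with TPM, and -0.0024 to 0.038 without 1 library), Slc4a1ap (-2.6e-05 without the 20 most abundant genes, -0.0092 with TPM, -0.045 to 0.12 without 1 library), Slc29a1 (-0.0075 and -0.0073 with FPKM, -0.043 with TPM), Slc49a4 (-0.0045 and -0.0042 with FPKM, -0.040 with TPM), Slc38a4 (-0.034) and Slc44a2 (-0.028) with TPM, and Slc39a7 (-0.074 to 0.011 without 1 library). The causes were not tested. Class medians lay from -0.20 to -0.10 for ions and pH and from 0.03 to 0.13 for sugars. Those of the other classes took both signs, between -0.13 and 0.16.

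Same-numbered Con and EX libraries did not deviate together (correlations of -0.08, -0.05 and -0.03). No pairing of mice by number was seen, but a pairing of little effect would look the same. With the replicate number as a block, the counts were 25 carriers past the threshold (7 rises and 18 falls) and 1782 of all genes. Depth limits the genes with few counts most, with a lowest count of 15.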
